A study of Homo sapiens with 2 samples.

Results

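The genes described here encode parts of the sodium pump (Na,K-ATPase) and the small membrane proteins that tune it: the FXYD proteins FXYD2, FXYD3, FXYD5 and FXYD6 and the beta subunits ATP1B1 and ATP1B3. They were taken by gene name from the annotation that accompanies the matrix, where these 6 genes occupied 5 of 57110 gene entries. FXYD2 and FXYD6 shared 1 joint entry, which also held their read-through gene FXYD6-FXYD2. The 5 entries listed 41 transcripts, of which 30 had a value above 0. The genes were chosen by their levels in the classes of barcodes below, already seen in these data, so the levels are given as a description with no test.

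The study sequenced cells of 3 ovarian cancer lines, IGROV1, SK-OV-3 and COV504, which had been trypsinized and combined in equal parts without further treatment named in the labels. The same pool gave 2 libraries, 1 read on an Illumina instrument and 1 on a nanopore PromethION instrument that reads whole cDNA molecules. From the Illumina library only its barcode list entered the work, and all 2462 barcodes of the PromethION library were on it. With 1 library per platform there was no replicate, so the intervals below, all at 95%, cover counting error only and no p-value is given.

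No label assigns a cell to a line. Barcodes with at least 1000 counts were therefore classed by marker genes: a barcode belonged to a class when at least 75% of its marker counts came from ERBB2, NNMT, TSPAN1 and DHRS2, from RARRES2 and TMEM100, or from FOLR1, CLDN3, DEFB1 and CXCL14. The ERBB2-high class held 648 barcodes and 3442383 counts (median depth 4953), the RARRES2-high class 473 barcodes and 3377992 counts (median depth 6262), and the FOLR1-high class 765 barcodes and 4514999 counts (median depth 5289). Mitochondrial genes took 2.93%, 3.11% and 7.07% of the counts of these classes. Median marker counts per barcode were 10, 11 and 8, and another 243 barcodes of that depth fell in no class. Outside the rule, the ERBB2 neighbours GRB7, MIEN1, STARD3 and PGAP3 were highest in the ERBB2-high class, which can be called SK-OV-3-like; GRB7 was also counted at 28.8 CPM (counts of the gene per 1e6 counts of the class) in the FOLR1-high class against 56.4 CPM. No line name is given to the other classes. Of the epithelial genes, KRT18 had a count in 85.0%, 99.2% and 86.4% of the barcodes of the ERBB2-high, RARRES2-high and FOLR1-high classes, KRT8 in 63.6%, 97.3% and 40.8% and EPCAM in 15.9%, 35.9% and 32.0%. The 7 markers of leukocytes, fibroblasts and endothelium (PTPRC, CD3E, CD14, DCN, LUM, PECAM1 and VWF) had at most 8 counts in any class, with CD3E and DCN at 0.

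The sodium pump moves sodium out of the cell and potassium in at the cost of ATP, and the gradient it builds drives many other carriers. A catalytic alpha subunit works with a beta subunit, which helps the alpha subunit fold and reach the membrane. FXYD proteins are single-pass membrane proteins, named after a short conserved motif, that bind the pump and change its affinity for ions or its turnover. FXYD2 is the gamma subunit of the kidney pump.

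The motif and its surroundings show how far the family members resemble each other in the stretch that names them. The following coding stretches (GENCODE release 29, GRCh38) are given 5′ to 3′ on the coding strand, with the 12 bases of the motif in capitals and 18 coding bases on each side. Each window crosses an intron, so the positions are its outer limits: FXYD2 at chr11:117822461-117822706 (minus strand), FXYD6 at chr11:117841846-117842017 (minus), FXYD3 at chr19:35121107-35122784 (plus) and FXYD5 at chr19:35166144-35166270 (plus).
FXYD2: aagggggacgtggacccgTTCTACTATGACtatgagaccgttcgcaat
FXYD6: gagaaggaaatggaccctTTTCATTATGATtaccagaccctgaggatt
FXYD3: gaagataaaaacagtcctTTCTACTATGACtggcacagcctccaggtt
FXYD5: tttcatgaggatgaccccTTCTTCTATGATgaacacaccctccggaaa
FXYD2 and FXYD3 were identical over the 12 motif bases but shared only 24 of the 48 bases of the window. FXYD2 and FXYD6 shared 31 of 48 bases and 8 of the 12 motif bases. FXYD2 and FXYD5 shared 28 of 48. The coding sequence was 198 bases in FXYD2, 285 in FXYD6, 261 in FXYD3 and 534 in FXYD5, and each had a single coding exon of 75 bases.

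The joint FXYD2/FXYD6 entry stood out in the FOLR1-high class. It had 5395 counts there, or 1195 CPM (interval 1163 to 1227), against 119 counts or 34.6 CPM (28.6 to 41.4) in the ERBB2-high class and 45 counts or 13.3 CPM (9.72 to 17.8) in the RARRES2-high class. The level in the FOLR1-high class was 34.6-fold that of the ERBB2-high class (28.8 to 41.8) and 89.7-fold that of the RARRES2-high class (66.9 to 123). Mitochondrial counts were also highest in the FOLR1-high class. When mitochondrial and ribosomal protein genes were both left out of the totals, the entry was at 1801 CPM in the FOLR1-high and 40.6 CPM in the ERBB2-high class. The first of these ratios was then 44.4, and the parts of the mitochondrial and the ribosomal protein genes in this were not separated. In the RARRES2-high class 39 of the 45 counts lay in 2 barcodes; the level there was 3.88 CPM when called doublets were left out, and no count remained when the marker share was raised to 90%.

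Split by transcript, almost all of this entry was FXYD2, which lies at chr11:117800844-117828698 on the minus strand. FXYD2 transcripts reached 30.5 CPM in the ERBB2-high, 12.1 CPM in the RARRES2-high and 1162 CPM in the FOLR1-high class, and made up 88.2%, 91.1% and 97.2% of the entry. FXYD6, the neighbouring family member at chr11:117836976-117877486 on the same strand, is known mainly from brain and inner ear. FXYD6 transcripts had 14 counts (4.07 CPM, 2.22 to 6.82), 4 counts (1.18 CPM, 0.323 to 3.03) and 148 counts (32.8 CPM, 27.7 to 38.5) in the same order of classes. FXYD6 was therefore also highest in the FOLR1-high class, at a far smaller part of the joint entry. The read-through transcripts that join both genes received 1.10 estimated counts in the FOLR1-high class and 0 in the other classes.

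**Figure D1:**
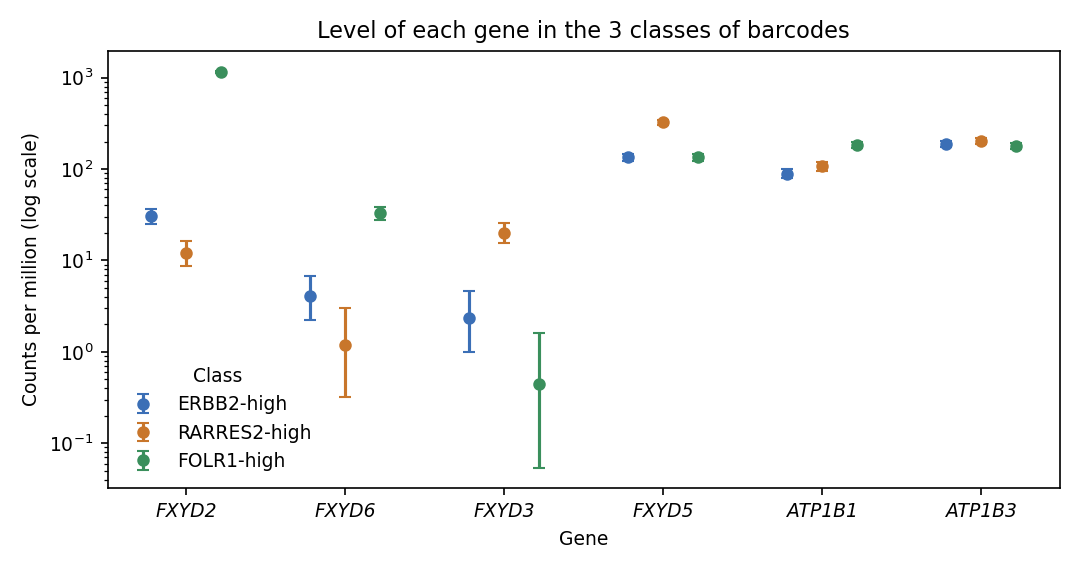
Levels of FXYD2 and FXYD6 (by transcript), FXYD3, FXYD5, ATP1B1 and ATP1B3 in CPM on a log axis; each point is 1 class of barcodes and bars are 95% Poisson intervals. FXYD2 and FXYD6 are highest in the FOLR1-high class, FXYD3 and FXYD5 in the RARRES2-high class, and the points of ATP1B3 lie between 179 and 201 CPM.

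Within the FOLR1-high class the entry was uneven from barcode to barcode. Of 765 barcodes, 339 had no count, 141 had 1 to 4, 79 had 5 to 9, 125 had 10 to 19 and 81 had 20 or more, and the highest had 108. Those 81 barcodes held 51.8% of the counts of the entry. Depth moved with the level: the entry was at 990 CPM in the shallowest of 3 equal groups of the class by depth, 1113 CPM in the middle group and 1311 CPM in the deepest group. After each barcode was thinned to 2000 counts, 48.6% of the FOLR1-high barcodes still had a count, compared with 55.7% before thinning. In the deepest group 69.4% of the barcodes had a count.

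In the ERBB2-high class 10.6% of the barcodes had a count of the entry, most of them between 1 and 4, and the highest had 11; after thinning the share was 5.61%. That class held the entry at 2.89% of its FOLR1-high level and the RARRES2-high class at 1.11%. The marker gene FOLR1 itself, which the class rule used, was at 4.94% and 1.49% of its FOLR1-high level, CXCL14, also in the rule, at 0 and 0.928%, and DEFB1, also in the rule, at 0.602% and 0.409%. Of genes outside the rule, KRT24 was at 0.321% and 0, HSD17B2 at 0 in both and MOXD1 at 14.1% and 0. The genes highest in the FOLR1-high class thus had no common share in the ERBB2-high class, and whether the low FXYD2 level there is expression or free RNA was not tested.

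**Figure D2:**
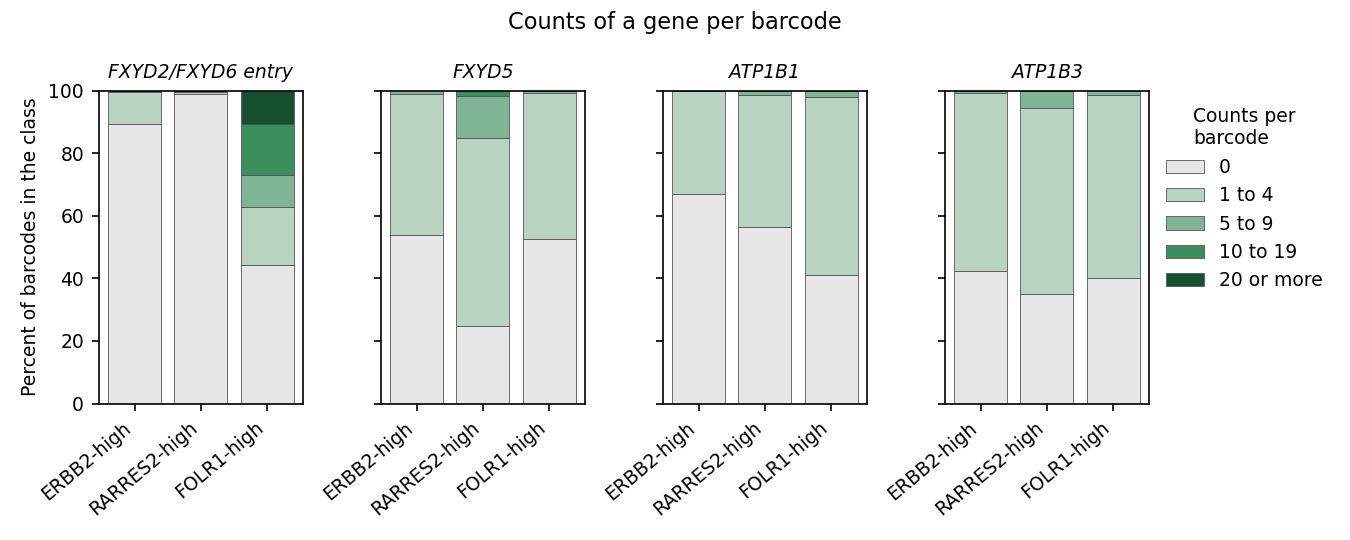
Percent of the barcodes of each class (vertical axis) that held 0, 1 to 4, 5 to 9, 10 to 19 or 20 or more counts of the FXYD2/FXYD6 entry, FXYD5, ATP1B1 and ATP1B3. The joint entry is the panel in which 81 FOLR1-high barcodes reach 20 counts or more while 339 have none; the beta subunits are mostly at 0 or at 1 to 4 counts.

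FXYD2 is made in forms that begin at different first exons, and the forms differ at the start of the protein. A single form, ENST00000292079 (chr11:117820075-117824744, 6 exons), led in every class. It held 82.4% of the joint entry in the ERBB2-high class (98 of 119 counts, 74.3 to 88.7%), 91.1% in the RARRES2-high class (41 of 45, 78.8 to 97.5%) and 97.0% in the FOLR1-high class (96.4 to 97.4%). The 41 RARRES2-high counts lay in 3 of 473 barcodes, with at most 27 in any of them, and none remained at a marker share of 90%. That share therefore describes few barcodes, and its interval takes their counts as independent. The form ENST00000260287, which starts farther upstream, held 2.94%, 0 and 0.101%. The coding part of the first coding exon is shown for both, at chr11:117824654-117824678 and chr11:117827995-117828013 on the minus strand, with the start codon in capitals, followed by the second coding exon that both forms share (chr11:117822679-117822717).
ENST00000292079, first coding exon: ATGactgggttgtcgatggacggtg
ENST00000260287, first coding exon: ATGgacaggtggtacctgg
Both forms, second coding exon: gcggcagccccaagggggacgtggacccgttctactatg
The forms therefore part only in a short first coding stretch, and the first holds 25 coding bases and the second 19. Of the estimated counts of ENST00000292079, 67.0% stood in matrix values that were whole, and none of those of ENST00000260287 did. The largest transcript share difference of the joint entry between the ERBB2-high and FOLR1-high classes was 14.6 percentage points, at the 94.3rd percentile of 4690 gene entries with enough counts; the larger FXYD6 part in the ERBB2-high class moved with it.

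FXYD3 had the fewest counts of the 5 entries, and the RARRES2-high class held most of them. FXYD3 (chr19:35115879-35124324, plus strand) is known from epithelia such as stomach and colon and from several carcinomas. It had 8 counts (2.32 CPM, 1.00 to 4.58) in the ERBB2-high class, 68 counts (20.1 CPM, 15.6 to 25.5) in the RARRES2-high class and 2 counts (0.443 CPM, 0.0536 to 1.60) in the FOLR1-high class. The RARRES2-high level was 8.66-fold the ERBB2-high level (4.16 to 20.9), but 2.41-fold when the marker share was raised to 90%, at which the level in the RARRES2-high class was 6.09 CPM. The 68 RARRES2-high counts came from 25 of 473 barcodes, with at most 10 in any of them. Without the 5 barcodes that held the most in each class, the level was 9.31 CPM in the RARRES2-high and 0.885 CPM in the ERBB2-high class. The ratio was then 10.5, and it was 17.7 as a mean of single barcodes. CLDN3, a tight junction gene that counts as a FOLR1-high marker in the rule, was at 78.7 CPM in the RARRES2-high class; its part in the drop at the stricter share was not tested. In the RARRES2-high class 71.5% of the FXYD3 counts (59.9 to 82.3%) were assigned to ENST00000604404 and 16.2% (8.36 to 27.1%) to ENST00000346446, while 6 of the 8 counts in the ERBB2-high class were assigned to ENST00000604621.

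FXYD5, also called dysadherin, has a long extracellular part and is known to weaken cell adhesion. FXYD5 (chr19:35154730-35169883, plus strand) had 465 counts (135 CPM, 123 to 148) in the ERBB2-high class, 1093 counts (324 CPM, 305 to 343) in the RARRES2-high class and 607 counts (134 CPM, 124 to 146) in the FOLR1-high class. The RARRES2-high class stood apart, at 2.40-fold the ERBB2-high class (2.15 to 2.68) and 2.41-fold the FOLR1-high class (2.18 to 2.66). The ratio of the ERBB2-high to the FOLR1-high class was 1.00 (0.889 to 1.14), and 0.743 under the other scaling described below. FXYD5 was spread over many barcodes: 46.1%, 75.3% and 47.6% of the 3 classes had a count, and 23.9%, 42.9% and 20.2% after thinning. In the RARRES2-high class the shallowest barcodes (the lowest of 3 equal groups by depth) were at 299 CPM and the deepest at 321 CPM.

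The transcript shares of FXYD5 were alike in the 3 classes. ENST00000392219 led with 76.1% (72.0 to 79.9%) in the ERBB2-high class, 78.1% (75.6 to 80.6%) in the RARRES2-high class and 81.5% (78.2 to 84.6%) in the FOLR1-high class. ENST00000541435 followed with 8.33%, 7.63% and 6.63%. ENST00000392217, whose model of 4 exons begins downstream of the others, held 4.64%, 5.82% and 3.68%. Many FXYD5 reads matched several models, since 40.1% of the estimated counts of ENST00000392219 stood in whole values.

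ATP1B1 encodes the beta-1 subunit, which is found in most epithelia. ATP1B1 (chr1:169105697-169132722, plus strand) had 306 counts (88.9 CPM, 79.2 to 99.4) in the ERBB2-high class, 361 counts (107 CPM, 96.1 to 118) in the RARRES2-high class and 831 counts (184 CPM, 172 to 197) in the FOLR1-high class. It was highest in the FOLR1-high class, at 2.07-fold the ERBB2-high class (1.81 to 2.37) and 1.72-fold the RARRES2-high class (1.52 to 1.95). The RARRES2-high class was 1.20-fold the ERBB2-high class (1.03 to 1.40). After thinning, 19.3%, 19.4% and 31.1% of barcodes had a count, and the lower pair was close in this share. ATP1B1 had 2 forms with counts: ENST00000367816 with 74.2%, 75.2% and 78.95% and ENST00000367815 with the rest. In the annotation both forms have the same 909 coding bases and differ outside them.

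ATP1B3 encodes the beta-3 subunit, and its level was the most even of the 5 entries. ATP1B3 (chr3:141876124-141926514, plus strand) had 643 counts (187 CPM, 173 to 202), 680 counts (201 CPM, 186 to 217) and 806 counts (179 CPM, 166 to 191) in the ERBB2-high, RARRES2-high and FOLR1-high classes. The RARRES2-high class was 1.08-fold the ERBB2-high class (0.966 to 1.20) and 1.13-fold the FOLR1-high class (1.02 to 1.25), and the ERBB2-high class was 1.05-fold the FOLR1-high class (0.942 to 1.16). Between 57.6% and 65.1% of barcodes had a count, and 29.6 to 32.5% after thinning. ENST00000286371 held 97.9%, 98.2% and 98.4% of its counts, and ENST00000462082, which skips 4 internal exons, held 2.08%, 1.80% and 1.62%.

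**Figure D3:**
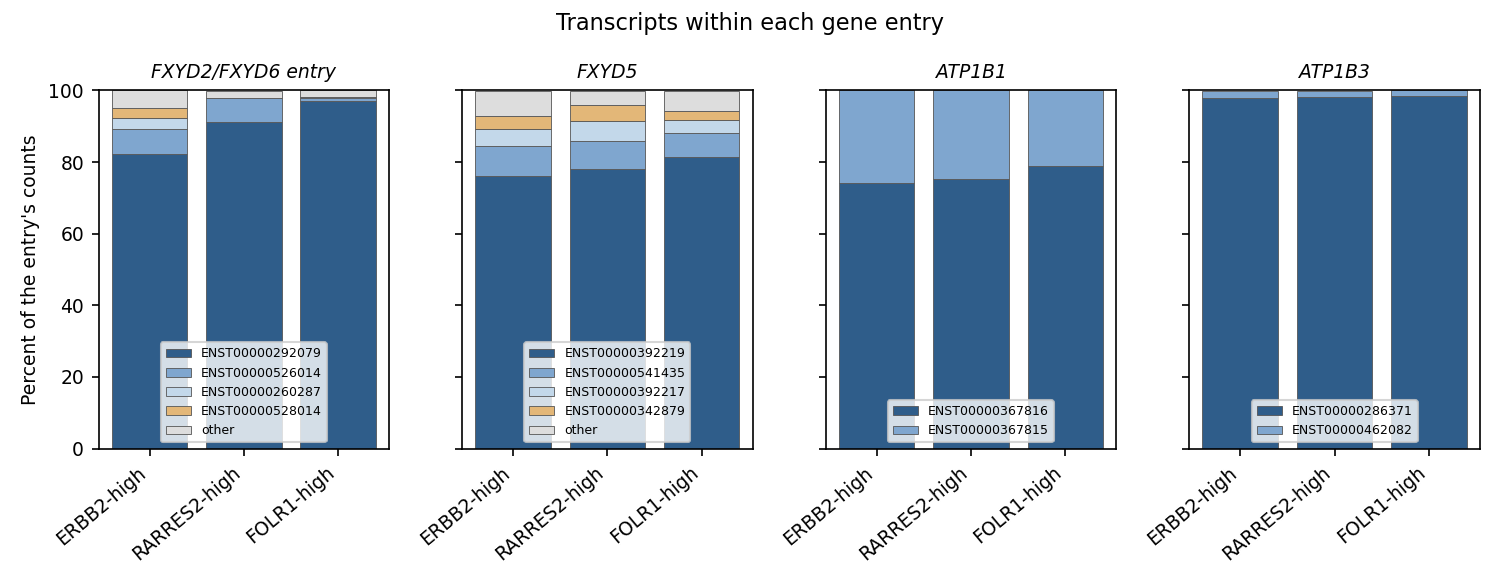
Percent of the counts of each gene entry (vertical axis) assigned to its leading transcripts, for the 3 classes of barcodes. The leading transcript is the same in every class for each of the 4 entries, with ENST00000292079 between 82.4% and 97.0% of the FXYD2/FXYD6 entry and ENST00000286371 near 98% of ATP1B3. The RARRES2-high bar of the FXYD2/FXYD6 entry rests on 45 counts in 5 barcodes.

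Transcript shares were not used in choosing these genes and were set against all gene entries with at least 50 counts in both classes. A difference of at least 20 percentage points in the share of some transcript was found in 2.88% of 4438 entries between the ERBB2-high and RARRES2-high classes, 2.58% of 4690 between the ERBB2-high and FOLR1-high classes and 3.67% of 4309 between the RARRES2-high and FOLR1-high classes. None of the FXYD or beta subunit entries with enough counts reached it. The differences were 2.005 to 5.37 points in FXYD5, 0.986 to 4.77 points in ATP1B1 and 0.179 to 0.462 points in ATP1B3, beside medians over all entries of 3.34 to 3.74 points. FXYD3, and the joint entry in the RARRES2-high class, had too few counts for this comparison.

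At the level of whole entries, a difference of at least 2-fold after 1 CPM was added was common. It was met by 33.2% of 10202 entries between the ERBB2-high and RARRES2-high classes, 34.0% between the ERBB2-high and FOLR1-high classes and 33.8% between the RARRES2-high and FOLR1-high classes. In each of these comparisons 3 of the 5 entries were past that limit, but these same contrasts had chosen the genes. The median entry was not at 0 on the log2 scale: it was higher by 0.21 in the ERBB2-high than the RARRES2-high class, by 0.43 in the ERBB2-high than the FOLR1-high class and by 0.18 in the RARRES2-high than the FOLR1-high class. Scaling by the median of ratios in place of the total brought these medians to between -0.01 and 0.02. It moved the share of the entries past the limit that were higher in the first-named class from 62.3% to 47.8%, from 74.0% to 49.9% and from 62.9% to 52.2%. Against this scaling the FOLR1-high lead of the joint entry over the ERBB2-high class was 46.7-fold, and ATP1B3 turned from slightly higher to lower in the ERBB2-high than the FOLR1-high class (from 1.05-fold to 0.774-fold) and from 1.13-fold to 0.980-fold in the RARRES2-high over the FOLR1-high class.

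**Figure D4:**
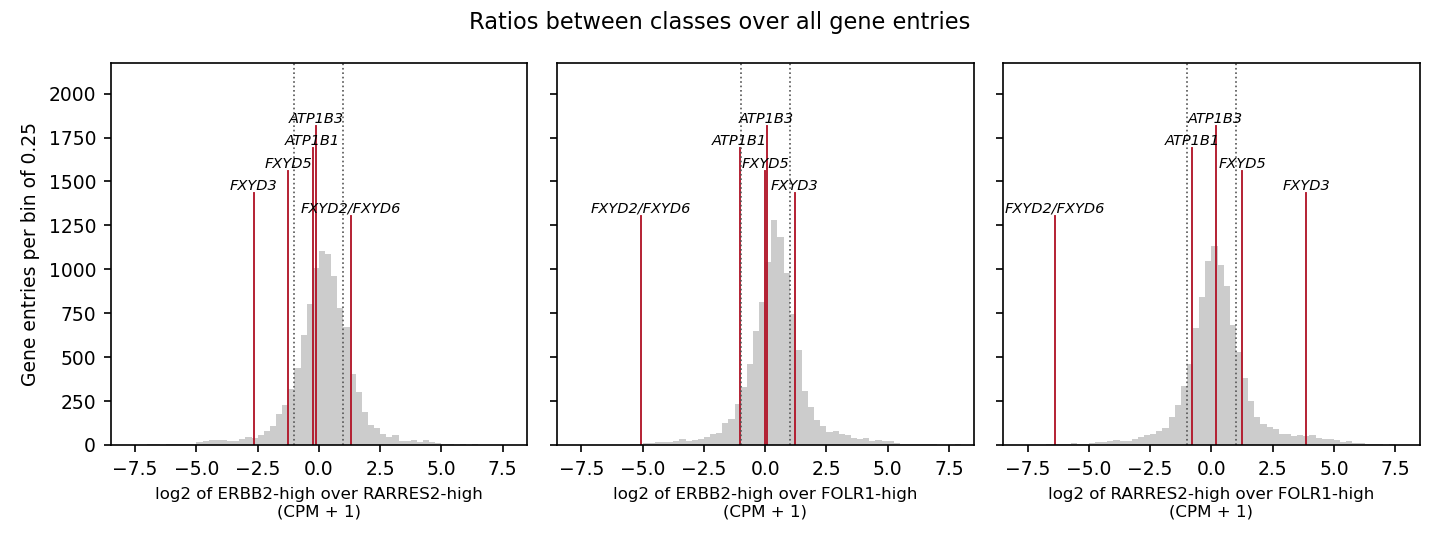
Number of gene entries (vertical axis, bins of 0.25) by the log2 ratio of CPM + 1 between each pair of classes; red lines mark the 5 entries described here and dotted lines a 2-fold difference. The joint FXYD2/FXYD6 entry lies far in the left tail of both comparisons with the FOLR1-high class, FXYD3 lies in the tails of both comparisons with the RARRES2-high class, and ATP1B3 lies near the middle in all of them.

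Other genes of the pump family outside the 6 were scarcely counted. The beta subunit genes ATP1B2 and ATP1B4 had no count, and the related proton pump genes ATP12A, ATP4A and ATP4B had none either, so the limit that a count of 0 allows, taken as 3 counts, was at most 0.888 CPM per class for each; the two-sided Poisson interval used for the other levels reaches 0.817 to 1.09 CPM at 0 counts. FXYD4, known from the kidney collecting duct, had 1 count. Under the median-of-ratios scaling ATP1B1 was at a scaled level of 74.97, 106 and 210 in the ERBB2-high, RARRES2-high and FOLR1-high classes, the same order as in CPM.

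A list of 44 genes of the pump, its partners, sodium-coupled carriers and regulators filled 42 entries, of which 27 had at least 50 counts, and 22 of those lie outside the 6 genes. Of the 22, 5 were at least 2-fold higher and 8 at least 2-fold lower in the ERBB2-high than the RARRES2-high class, beside 20.7% and 12.5% of all entries. Between the ERBB2-high and FOLR1-high classes 2 were higher and 5 lower, beside 25.2% and 8.83%. Between the RARRES2-high and FOLR1-high classes 7 were higher and 6 lower, beside 21.3% and 12.5%. The median log2 ratios of the 22 were -0.07, 0.15 and 0.05, each below the median of all entries given above. Under median-of-ratios scaling 3 were higher and 8 lower, 2 higher and 5 lower, and 5 higher and 6 lower in the same comparisons. The shares of all entries under this scaling were 14.7% and 16.1%, 14.5% and 14.6%, and 17.2% and 15.8%. The median log2 ratios of the 22 were -0.30, -0.22 and -0.14. This scaling also turned the order of the ERBB2-high and FOLR1-high classes for genes that included SLC12A4, SLC12A7, SCNN1A, NEDD4L and OXSR1, whose CPM differed by at most 1.28-fold between those classes.

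Among the regulators, SGK1, a kinase that raises sodium transport and pump activity, was at 4.94, 12.1 and 36.5 CPM in the ERBB2-high, RARRES2-high and FOLR1-high classes. NEDD4L, a ubiquitin ligase that removes the epithelial sodium channel from the membrane and is restrained by SGK1, was at 23.8, 70.2 and 18.6 CPM. Of the other kinases in the list, STK39 was at 21.2, 31.4 and 13.95 CPM, and its RARRES2-high level was 2.25-fold the FOLR1-high level (1.63 to 3.12). WNK1 at 93.0, 97.99 and 60.2 CPM, OXSR1 at 25.6, 24.0 and 21.3 CPM and PRKAA1 at 36.0, 22.5 and 25.9 CPM differed by less than 2-fold between classes.

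Some of the carriers that use or face the sodium gradient differed widely between the classes. SLC8A1, the sodium-calcium exchanger, was at 6.39, 2.37 and 98.6 CPM, a FOLR1-high lead of 15.4-fold (10.1 to 24.9) over the ERBB2-high class. SCNN1A, the alpha subunit of the epithelial sodium channel, was at 3.49, 18.7 and 3.10 CPM, highest in the RARRES2-high class as FXYD3 was. SLC5A3, which brings in myo-inositol with sodium, was at 86.6, 117 and 17.7 CPM. The glutamine carrier SLC1A5 was at 177, 35.8 and 88.2 CPM, and the amino acid carriers SLC38A1 and SLC38A2 stayed within 2-fold. SLC12A2, which carries sodium, potassium and chloride inward, was at 18.01, 48.0 and 21.3 CPM. Caveolin-1, encoded by CAV1 and known to bind the pump in membrane pits, had the widest range of the partners, at 1199, 4130 and 118 CPM. CAV1 was lowest in the FOLR1-high class, where the joint FXYD2/FXYD6 entry was highest.

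The FOLR1-high class held barcodes in different states. Barcodes with at least 5 counts of CXCL14, CD44 and DEFB1 together were called the CXCL14 state when at least 75% came from CXCL14 (164 barcodes, median depth 5081) and the CD44-DEFB1 state when at least 75% came from the other genes (77 barcodes, median depth 7587). The remaining 524 barcodes had a median depth of 5241.5. FXYD2 was already known to lead a group of these cells, so the state levels are a description. All these barcodes come from 1 library.

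The joint entry was scarce in one state and abundant in the other. In the CXCL14 state 21 of 164 barcodes had a count and the level was 83.5 CPM (65.9 to 104). In the CD44-DEFB1 state 76 of 77 barcodes had a count, the median barcode had 15 and the level was 2566 CPM (2442 to 2696). The ratio was 30.7 (24.5 to 39.2). The remaining barcodes lay between, at 1255 CPM with 62.8% of them holding a count. Other genes differed widely between these states too: SPP1 was at 106 CPM in the CXCL14 state and 4003 CPM in the CD44-DEFB1 state, CD24 at 481 and 3081 CPM and MDK at 1076 and 144 CPM. The class marker FOLR1 was at 602 and 681 CPM. These genes were chosen after their values were seen.

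FXYD5 was also higher in the CD44-DEFB1 state, at 225 CPM against 92.1 CPM, a ratio of 2.44 (1.85 to 3.24). For the beta subunits the interval of the ratio included 1: ATP1B1 was at 165 against 183 CPM (ratio 0.901, 0.698 to 1.16) and ATP1B3 at 159 against 167 CPM (0.950, 0.730 to 1.23; 1.14 with at least 10 counts of the state genes). FXYD3 had no count in either state. A difference of at least 2-fold in either direction was found in 11.0% of 3565 entries between the states, and in 6.56% with the higher level in the CD44-DEFB1 state, and the median entry differed by 0.01 on the log2 scale.

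Among the other list genes, the interval of the state ratio lay above 1 for CAV1, SLC38A1, SLC38A2, SLC1A5 and SGK1 and below 1 for ANK3, SLC4A7 and SLC8A1. The share of all entries with such an interval was not counted, and the 2-fold shares above are another measure. These names are therefore a description and not a result about the list. SGK1 had the widest of the higher ratios, at 80.9 against 15.2 CPM (5.33, 2.90 to 10.4). SLC8A1, a list gene with a wide FOLR1-high lead, was lower in the CD44-DEFB1 state (77.7 against 116 CPM).

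**Figure D5:**
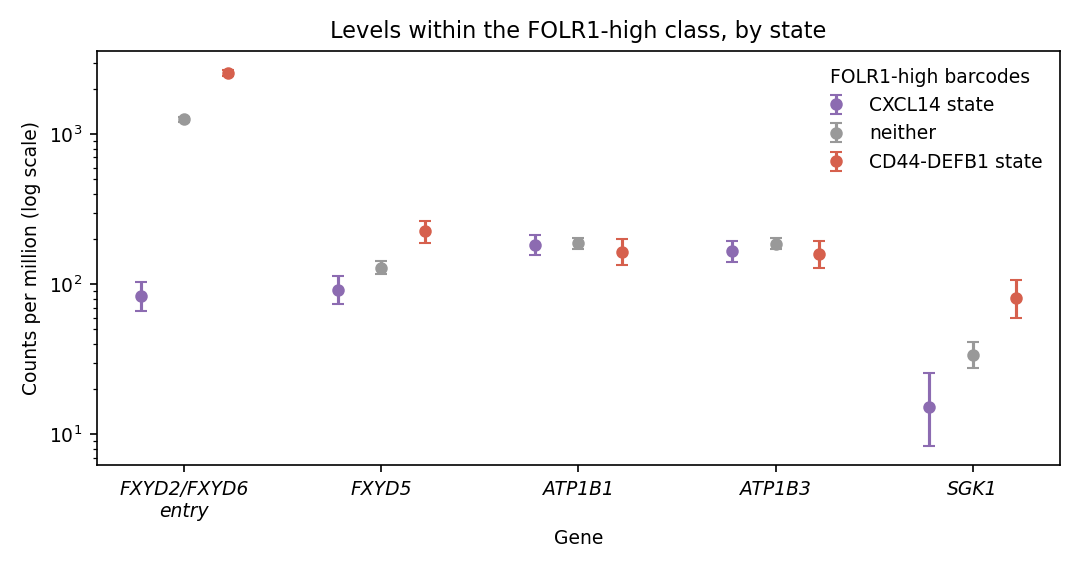
Levels in CPM (log axis) of the FXYD2/FXYD6 entry, FXYD5, ATP1B1, ATP1B3 and SGK1 in the CXCL14 state, the CD44-DEFB1 state and the remaining FOLR1-high barcodes; bars are 95% Poisson intervals. The joint entry is at 83.5 CPM in the CXCL14 state and 2566 CPM in the CD44-DEFB1 state, while ATP1B1 and ATP1B3 have overlapping intervals.

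Across the 733 FOLR1-high barcodes with at least 2000 counts, thinned to that depth, the genes whose counts were most like those of the joint entry were CD24 (Pearson r = 0.64), TMSB10 (r = 0.62) and SPP1 (r = 0.62), out of 1329 genes. CD24 encodes a surface glycoprotein, TMSB10 an actin-binding peptide and SPP1 the secreted protein osteopontin. MDK, the growth factor midkine, had the most negative value (r = -0.54) and CXCL14 followed (r = -0.46); these genes were chosen after their values were seen. For FXYD3 in 443 RARRES2-high barcodes the nearest genes were LCN2 (r = 0.40), PERP (r = 0.31) and CEACAM6 (r = 0.30), which rest on 11 barcodes with a count of FXYD3 after thinning. For FXYD5, ATP1B1 and ATP1B3 the highest r was 0.23, 0.15 and 0.15, too weak in counts this sparse to be a finding. The points are barcodes of a single library and share its depth and free RNA. Between the genes themselves, r with the joint entry in the FOLR1-high class was 0.13 for FXYD5, 0.0043 for ATP1B1 and -0.040 for ATP1B3.

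Near the limit of the class rule, the 85 barcodes with a marker share of 75 to under 80% and the 39 with 70 to under 75% had 193 and 197 CPM of the joint entry, 19.2 and 36.4 CPM of FXYD3, 233 and 333 CPM of FXYD5, 107 and 145 CPM of ATP1B1 and 222 and 191 CPM of ATP1B3. In the 1255 barcodes with a marker share of 100% these levels were 680, 0.909 (6 counts), 168, 143 and 181 CPM. These groups pool the 3 classes. The 243 barcodes of at least 1000 counts in no class had 193 CPM of the joint entry and 187 CPM of ATP1B3. FXYD2, FXYD6, FXYD3, ATP1B1 and ATP1B3 overlap other annotated genes, among them DSCAML1 and NME7, and the sources used here do not say whether the counting used the strand, so reads of overlapping genes cannot be told apart beyond the authors' assignment.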

How the data were processed

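Per the labels, 2 libraries were made from 1 pool of cells. The authors deposited a matrix of estimated counts per transcript and barcode, not normalised, and the series title names Isosceles. The submitters' processing notes name Cell Ranger 6.0.1 and GRCh38 with no role, and the handling of molecular identifiers was not given in the sources used here. Of the matrix values 39.8% were whole within 1e-06, as were 100% of the sums of a gene entry within a barcode. Total counts came to 13052893 over 2462 barcodes, of which 1886 were classed (1009 to 25670 counts each); classes were summed and divided by their totals (CPM). Intervals were exact Poisson for counts, Clopper-Pearson for shares and conditional binomial for ratios, with estimated counts rounded. Python 3.11.15, scipy 1.17.1 and scanpy 1.11.5 were used, and the computations were tested on simulated data. Scrublet at an expected rate of 0.02 ran on the 2129 barcodes with at least 1000 counts, because it stopped with an error on all barcodes; it called 49 doublets, 14 of them classed, which stayed in. Transcript models came from GENCODE release 29. Promoter and protein sequences were not used here. Some genes of the list count in its totals but are not reported here by name. Named genes were the 6 genes, the list genes with at least 50 counts, the 3 most alike genes of each, and transcripts with at least 20 counts or 5% of an entry. The genes, lists and classes were chosen with earlier results of these data known. The bins of counts per barcode, the groups by depth, the genes set beside the joint entry for free RNA and the count of entries between states were added after values were seen. Alternatives covered the class rule, doublets, scaling, thinning, pseudocount and count minimum.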

Additional observations from a re-analysis of the deposited data

How the results depend on the processing

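With 1 library per platform no replicate could be left out. No paired analysis was possible because a platform had 1 library. Of 109 alternative values, 62 stayed within their limit and 47 moved. Of the first, the state ratio of ATP1B3, whose interval includes 1, turned from 0.950 to 1.14 with at least 10 counts of the state genes. The turns of ATP1B3 and FXYD5 against the FOLR1-high class under median-of-ratios scaling are given with their levels above. Ratios against a class with no count gave no value. The cause of each move was not tested.

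The FOLR1-high over ERBB2-high ratio of the joint FXYD2/FXYD6 entry was 45.7 without called doublets, 44.4 without mitochondrial and ribosomal protein genes, 46.7 under median-of-ratios scaling and 45.5 without the 5 barcodes with the most counts of the gene in each class; the last setting was chosen after seeing the data. Its state ratio was 43.8 at a state gene share of 90%. The RARRES2-high over ERBB2-high ratio of FXYD3 was 2.41 at a marker share of 90%. Median-of-ratios scaling gave 2.81 for FXYD5 and 1.27 for ATP1B3 in the RARRES2-high over the ERBB2-high class, and 1.98 for ATP1B1 in the FOLR1-high over the RARRES2-high class; without mitochondrial and ribosomal protein genes that ATP1B1 ratio was 2.13. This scaling was applied to the counts of entries and to the states after seeing the data.

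Thinning gave 48.6% of FOLR1-high barcodes with a count of the joint entry and 31.1% of ATP1B1, and 2.48% of RARRES2-high barcodes with FXYD3, 42.9% with FXYD5 and 29.6% with ATP1B3. The share of ENST00000292079 in the FOLR1-high class was 98.4% over whole values and 90.04% as a mean of single barcodes. That of ENST00000392219 of FXYD5 in the RARRES2-high class was 71.6% as a mean of single barcodes and 80.6% at a marker share of 90%. ENST00000367816 of ATP1B1 in the FOLR1-high class was at 73.3% and 74.2%, and ENST00000286371 of ATP1B3 in the RARRES2-high class at 99.4% and 96.7%, over whole values and as a mean. Without thinning, r was 0.73 for the joint entry with CD24 and 0.58 for FXYD3 with LCN2.

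The number of entries past the fold limit, in the order ERBB2-high against RARRES2-high (3392), ERBB2-high against FOLR1-high (3470) and RARRES2-high against FOLR1-high (3452), was 5608, 5815 and 5566 at 1.5-fold, 1583, 1617 and 1812 at 3-fold, 1816, 1809 and 1936 with 10 CPM added, and 1808, 1907 and 1860 with at least 200 counts. With no minimum count it was 5108, 4904 and 5108. The entries past the transcript share limit (128, 121 and 158) numbered 609, 603 and 707 at 10 points, 31, 34 and 54 at 30 points, and 81, 71 and 98 with at least 100 counts in both classes.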
